A study of Mus musculus with 9 samples.

Results

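The 9 genes described here belong to the machinery that places or removes methyl groups on lysine 4 of histone H3 (H3K4). They were followed in mouse acute myeloid leukaemia with and without Ezh2. They are Wdr5, Ash2l, Rbbp5 and Dpy30, the shared core of the MLL and SET1 methyltransferase complexes, Men1 and Psip1, which tether MLL to chromatin, and Kdm5a, Kdm5b and Kdm5c, demethylases that remove the mark. The members were chosen by symbol, 9 of 20680 genes measured, and every probe set annotated to 1 of these symbols alone was kept, 31 in all. The symbols were listed with the log2 genotype differences of these same arrays in view, so in effect selected on them. Their own genotype differences are therefore a description. Where a count of members past a threshold is given, it stands beside the share of all genes and nothing is read from it.

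The leukaemia was driven by a retrovirus carrying the fusion MLL-AF9 together with GFP, in cells given to irradiated C57B/6 mice. Cre was switched on in these mice by the interferon inducer pIpC, with YFP marking cells in which it had acted. The arrays measured sorted GFP+/YFP+ marrow cells of leukaemic secondary recipients, 4 samples labelled WT and 5 labelled Ezh2-null, so that both groups carry the fusion and had active Cre. The labels give neither the promoter that drives Cre, nor the age of the mice, nor the primary leukaemia behind each sample. Samples of 1 group may thus share an origin. Any p-value rests on the spread between these samples, and may then be too small for a comparison of independent leukaemias. Precision is limited by how few arrays there are.

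H3K4 methylation marks active promoters. In mammals it is written by the MLL enzymes and by SETD1A and SETD1B, which all need the WDR5, RBBP5, ASH2L and DPY30 core bound near their C-terminal catalytic domain. MLL-AF9 lacks that domain and keeps the N-terminal part of MLL, where menin and LEDGF, the products of Men1 and Psip1, bind. Ezh2 is the enzyme of the Polycomb complex PRC2 and places the opposing mark, H3K27 trimethylation.

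Values given with the verb read are intensities on the deposited linear scale, levels and differences are on the log2 scale, a difference is Ezh2-null minus WT, and each gene stands for its brightest probe set unless another is named. In Ezh2-null samples Ezh2 fell by 1.30 (SE 0.21, adjusted p = 0.0373 in limma), to 40.7% of the WT intensity. Among WT arrays, replicates 3 and 4 stood apart. For the mean deviation of 9 neutrophil maturation genes from their average over all arrays they stood at -1.73 and -1.14, against 0.27 to 0.31 on WT replicates 1 and 2 and -0.33 to 0.85 on Ezh2-null arrays. For 12 G2/M genes they stood at 0.53 and 0.46, against 0.12 to 0.15 on the other WT arrays and -0.53 to -0.08 on Ezh2-null arrays. Results are therefore also given without these 2 arrays. All 9 neutrophil genes were higher in Ezh2-null samples, with a median difference of 0.77, and 0 passed in limma at an adjusted p under 0.05. All 12 G2/M genes were lower, with a median of -0.62. Among these 1 passed, Bub1 at -1.15 (adjusted p = 0.0373 in limma), although its 2 probe sets ran from -1.15 to 0.46. At an unadjusted p under 0.05 were 4 of the 9 and 9 of the 12, where 17.2% of all genes were. Of 10 measured markers of MLL-AF9 myeloid cells, among them Mpo and Elane, 0 lay below the 40th percentile of brightness. Their mean level ran from 11.37 to 11.76 in WT and from 11.03 to 11.65 in Ezh2-null samples. Single markers moved in both directions, 5 up and 5 down, from -1.27 (Ctsg) to 1.03 (Cd33), which a mean level hides. In limma 0 of the 10 passed at an adjusted p under 0.05. At an unadjusted p under 0.05 were 1 higher and 2 lower, where 17.2% of all genes were under it.

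Of the 9 members, 2 differed by more than 0.5 between the genotypes (13.2% of all genes), in opposite directions. Kdm5b was 2.39-fold higher in Ezh2-null leukaemia, and Ash2l was at 55.2% of its WT intensity. The other 7 lay between -0.30 and 0.13. In the limma fit across all genes 2 of the 9 members passed at an adjusted p under 0.05, Kdm5b and Ash2l, where 0.498% of all genes passed. In 1 member every Ezh2-null array lay above every WT array (3.03% of all genes) and in 1 every Ezh2-null array lay below (2.87%). The count that passed was 2 without WT replicate 1, WT replicate 2 or Ezh2-null replicate 5, 0 without each of the other 6 arrays, and 0 without WT replicates 3 and 4 together (0.295% of all genes). The list was drawn up from this contrast, which favours such calls, so none of these counts supports a difference. The median difference was -0.21 over the 9 members and 0.02 over all genes. Leaving out WT replicate 3 moved the members' median to -0.115, and leaving out WT replicate 4 as well moved it to -0.075. In sorted cells measured in bulk, fewer cells of a type and less RNA per cell cannot be told apart.

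**Figure D1:**
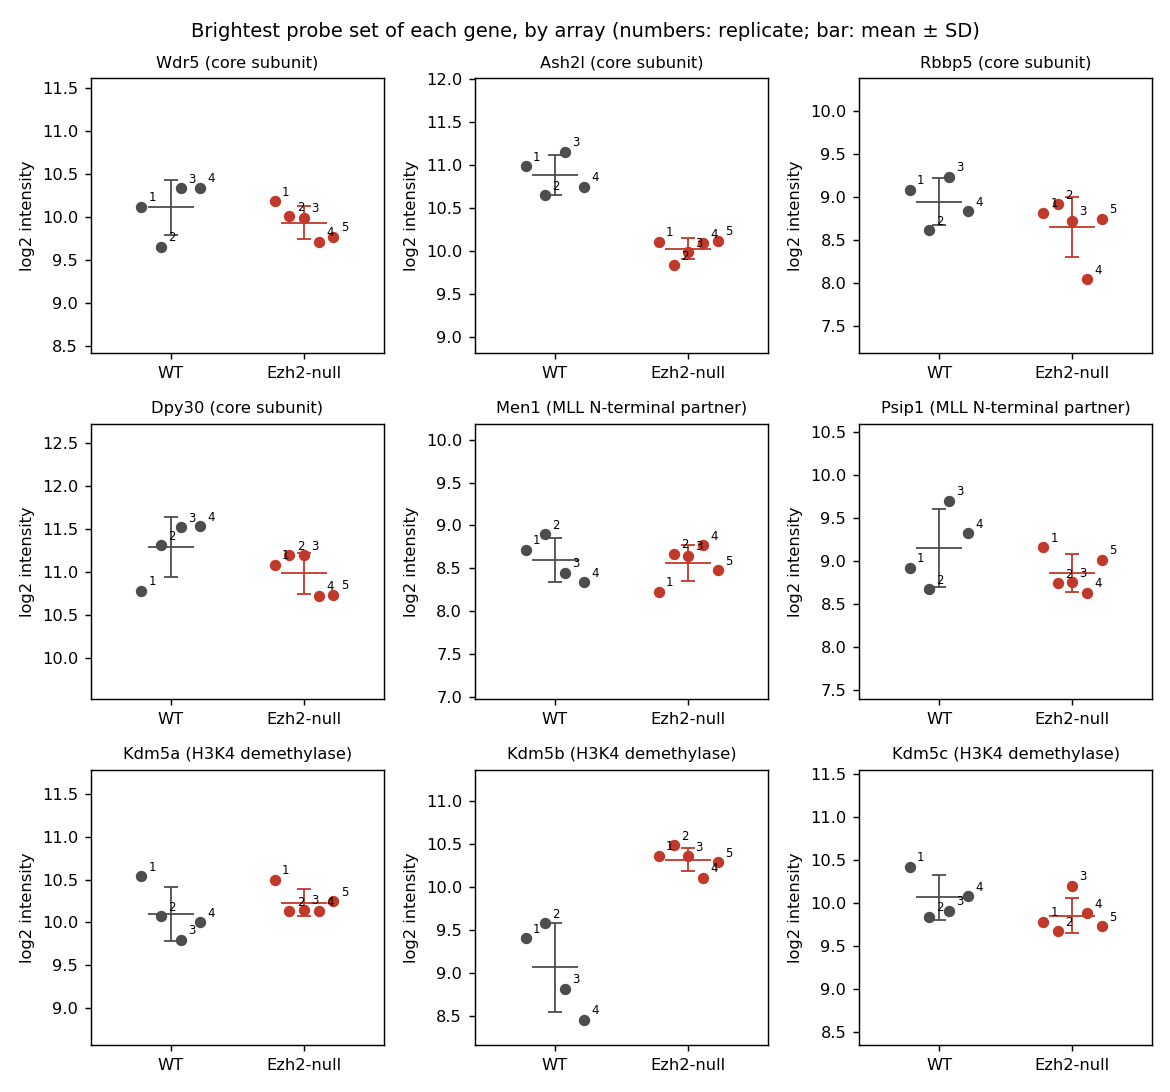
Log2 intensity of the brightest probe set of each of the 9 genes on the 4 WT and 5 Ezh2-null arrays. Points are arrays with their replicate number, bars are the mean ± SD, and every panel spans the same range. The groups do not overlap for Kdm5b (higher in Ezh2-null) and Ash2l (lower), and overlap for the other 7 genes.

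Kdm5b, also known as JARID1B or PLU-1, removes methyl groups from trimethylated and dimethylated H3K4 and acts mainly as a repressor. Its promoter is shown because it is the member with the largest difference. The 300 bases around its annotated start (RefSeq, GRCm38.p6, chr1:134559928-134560227, plus strand) hold 17 CpG dinucleotides, the sequence that the CXXC domain of MLL and of the SET1 partner CXXC1 recognises when unmethylated. CpGs are in capitals.
Kdm5b: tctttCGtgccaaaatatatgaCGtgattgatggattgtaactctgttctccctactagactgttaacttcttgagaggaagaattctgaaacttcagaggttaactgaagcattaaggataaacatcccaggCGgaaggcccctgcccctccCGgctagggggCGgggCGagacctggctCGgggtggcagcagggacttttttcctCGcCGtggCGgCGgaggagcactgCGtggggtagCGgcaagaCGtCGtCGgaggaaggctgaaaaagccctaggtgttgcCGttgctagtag
Of 32851 promoter windows of this length 94.6% held at least 1 CpG and the median was 7. The Kdm5b window had more CpGs than 68.6% of them. The letters CG read the same on both strands, and no methylation was measured here.

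The brightest Kdm5b probe set read 678, 763, 452 and 353 on WT replicates 1 to 4. On Ezh2-null replicates 1 to 5 it read 1327, 1436, 1315, 1106 and 1252. Every Ezh2-null array was thus above every WT array, with a gap of 0.534 on the log2 scale between the nearest arrays. WT replicates 3 and 4, which had the lowest neutrophil gene values, were the lowest for Kdm5b too, and the part of maturation in its difference was not tested. The log2 level in WT was 9.07 ± 0.52 (SD, n = 4), that in Ezh2-null samples 10.32 ± 0.14 (SD, n = 5), a difference of 1.26 (SE 0.21). Without WT replicates 3 and 4 the difference was 0.83, and the groups still did not overlap.

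The other 3 Kdm5b probe sets were dimmer and also higher in Ezh2-null leukaemia. The second by brightness read 396, 348, 195 and 206 in WT and 484, 534, 396, 396 and 562 in Ezh2-null samples, a difference of 0.78 (SE 0.23). There WT replicate 1 touched the lowest Ezh2-null arrays. The third read 76.5, 168, 93.9 and 78.1 in WT and 136, 253, 270, 121 and 189 in Ezh2-null samples, a difference of 0.90 (SE 0.30), with WT replicate 2 inside the Ezh2-null range. The dimmest read 141, 92.5, 66.0 and 90.6 in WT and 159, 164, 165, 150 and 150 in Ezh2-null samples, a difference of 0.75 (SE 0.19), with no overlap. All 4 probe sets of Kdm5b thus had the same direction. Without overlap between the groups were 2 of the 31 member probe sets with higher Ezh2-null values, both of Kdm5b (2.70% of all probe sets), and 1 with lower, of Ash2l (2.80%). Nothing is read from these counts either. Without WT replicates 3 and 4 the differences of the 3 dimmer Kdm5b probe sets were 0.34, 0.70 and 0.46.

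Ash2l encodes the core subunit that, with Rbbp5, stimulates the catalytic activity of the MLL enzymes. Its brighter probe set read 2029, 1607, 2286 and 1721 on WT replicates 1 to 4 and 1103, 916, 1017, 1087 and 1110 on Ezh2-null replicates 1 to 5. Every Ezh2-null array was below every WT array, again with a gap of 0.534. The log2 level in WT was 10.89 ± 0.23 (SD, n = 4), that in Ezh2-null samples 10.03 ± 0.12 (SD, n = 5), a difference of -0.86 (SE 0.13), and -0.79 without WT replicates 3 and 4. The other probe set did not show it. It read 546, 991, 421 and 642 in WT and 708, 446, 731, 478 and 607 in Ezh2-null samples, with overlapping groups and a difference of -0.09 (SE 0.25). After subtraction of genotype means the 2 Ash2l probe sets had a Pearson r of -0.52 over the 9 arrays. The files do not place either probe set on the transcript, so the lower Ash2l signal rests on 1 of 2 probe sets.

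**Figure D2:**
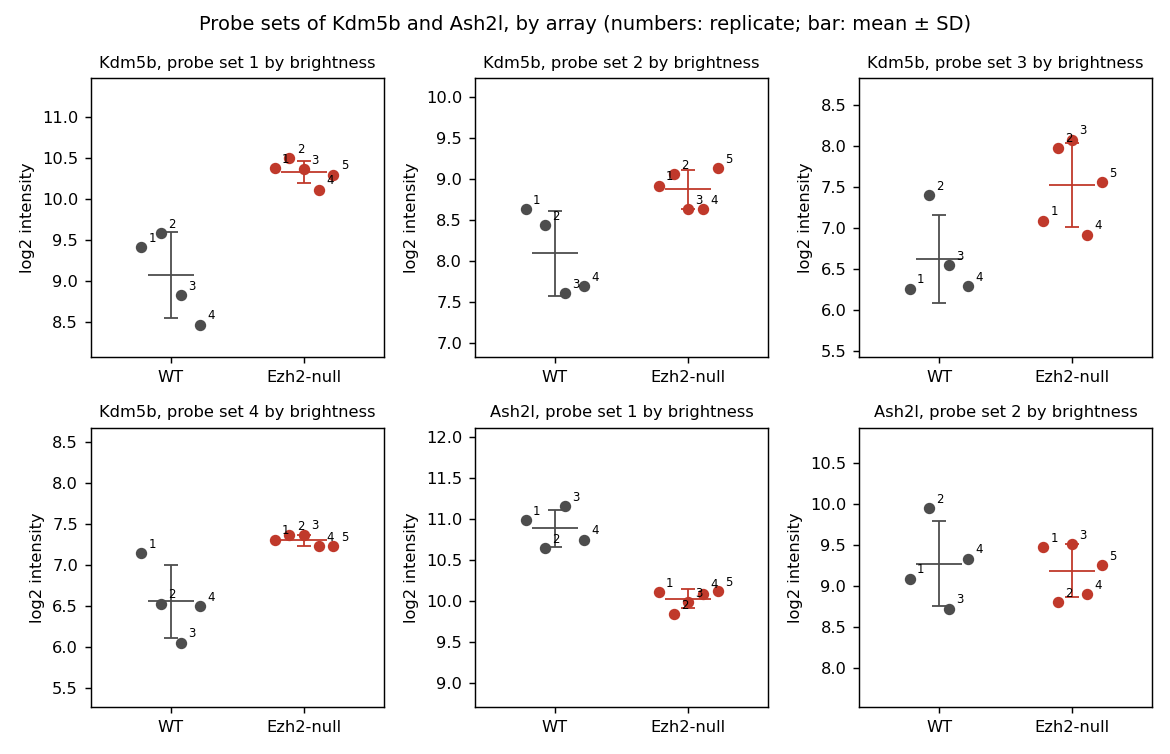
Log2 intensity of the 4 probe sets of Kdm5b and the 2 of Ash2l, ordered by brightness, on each WT and Ezh2-null array. Points carry the replicate number and bars are the mean ± SD. All 4 Kdm5b probe sets are higher in Ezh2-null samples, 2 of them without overlap, while Ash2l separates the groups on its brighter probe set (-0.86) and not on the other (-0.09).

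The remaining core genes were slightly lower in Ezh2-null samples, with overlap between the groups. Dpy30, whose product forms a dimer that docks on ASH2L, read 1753, 2531, 2932 and 2959 in WT and 2165, 2331, 2333, 1691 and 1696 in Ezh2-null samples, a log2 difference of -0.30 (SE 0.18). Its highest values were on WT replicates 3 and 4, and without them the difference was -0.06. Rbbp5, which bridges the enzyme and ASH2L, read 544, 393, 607 and 458 in WT and 452, 484, 424, 265 and 430 in Ezh2-null samples. Its difference was -0.29 (SE 0.20), and -0.20 without WT replicates 3 and 4.

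Wdr5, the WD-repeat protein that binds both the enzyme and the histone H3 tail, read 1114, 801, 1286 and 1296 in WT and 1161, 1034, 1017, 835 and 874 in Ezh2-null samples. The difference was -0.18 (SE 0.17), and it turned to 0.05 without WT replicates 3 and 4. Its dimmer probe set differed by -0.40 (SE 0.32). WT replicates 3 and 4 had the highest mean deviation of the 4 core genes, 0.48 and 0.28. WT replicates 1 and 2 had 0.16 and -0.03, and Ezh2-null arrays ran from -0.44 to -0.03. The G2/M genes named above were also highest on WT replicates 3 and 4, and their Ezh2-null arrays all lay under the lowest WT array. Their part in the core genes' differences was not tested.

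Men1 encodes menin, the scaffold that holds the MLL N-terminus, fused or not, on its targets. Its brightest probe set by mean over all arrays carries the suffix _x_at, which in the naming of these probe sets marks probes that can also match other transcripts. It read 420, 478, 349 and 324 in WT and 300, 407, 402, 435 and 357 in Ezh2-null samples, a log2 difference of -0.04 (SE 0.15). The sign changed in 4 of 19 alternative fits. The second Men1 probe set read 710, 466, 504 and 272 in WT and 389, 328, 241, 268 and 331 in Ezh2-null samples, a difference of -0.59 (SE 0.25). WT replicate 4 lay among the Ezh2-null arrays there, and without WT replicates 3 and 4 the difference was -0.91 with no overlap. The third differed by -0.33 (SE 0.22).

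Psip1 encodes LEDGF, which binds menin with MLL and reads methylated H3K36. It read 486, 408, 833 and 639 in WT and 573, 427, 430, 395 and 515 in Ezh2-null samples, a log2 difference of -0.30 (SE 0.21). WT replicates 3 and 4 were the highest arrays, and without them the difference was 0.06. The other 3 Psip1 probe sets differed by 0.25 (SE 0.11), 0.02 (SE 0.20) and -0.05 (SE 0.24), so that its 4 probe sets shared no direction. Within genotypes Psip1 and Wdr5 had a Pearson r of 0.76 over the 9 arrays, and Psip1 and Men1 -0.88, as a description. These points share arrays, and WT replicates 3 and 4 were above the WT mean for Psip1 and Wdr5 and below it for Men1.

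Kdm5a, the retinoblastoma-binding paralogue that occurs as a fusion partner of NUP98 in human leukaemia, differed by less than its spread between arrays. Its brightest probe set read 1492, 1076, 891 and 1024 in WT and 1448, 1124, 1135, 1124 and 1215 in Ezh2-null samples, a log2 difference of 0.13 (SE 0.16), and -0.07 without WT replicates 3 and 4. The 5 other probe sets ran from -0.08 to 0.46, and the groups overlapped on all 6. Kdm5a probe sets varied apart from each other within genotypes, with a median Pearson r of -0.13 over 15 pairs and 9 arrays, against 0.52 over the 6 pairs of Kdm5b probe sets.

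Kdm5c is the X-linked paralogue and escapes X inactivation. It read 1375, 916, 964 and 1082 in WT and 879, 816, 1173, 945 and 847 in Ezh2-null samples, a log2 difference of -0.21 (SE 0.15). Of its 8 probe sets 7 were negative and 1 positive, from -0.38 to 0.12, all with overlap, and 2 of the 8 lay below the 40th percentile of brightness. Since Kdm5c has a Y-linked counterpart, Kdm5d, and its level depends on the number of X chromosomes, genes that tell male from female cells were read on every array. Xist, the RNA of the inactive X chromosome, was bright on all of them, from 13.47 to 13.62 in WT and from 13.32 to 13.55 in Ezh2-null samples. The Y-linked Ddx3y, Eif2s3y, Uty and Kdm5d were all below the 40th percentile of brightness, with Kdm5d in WT at 6.19 ± 0.32 (SD, n = 4) and in Ezh2-null samples at 6.11 ± 0.18 (SD, n = 5). No array differed from the others in these genes by the pattern of a male sample, and none of the 5 passed (smallest adjusted p = 0.354 in limma). Kdm5b and Kdm5c thus were compared among arrays of 1 sex pattern.

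**Figure D3:**
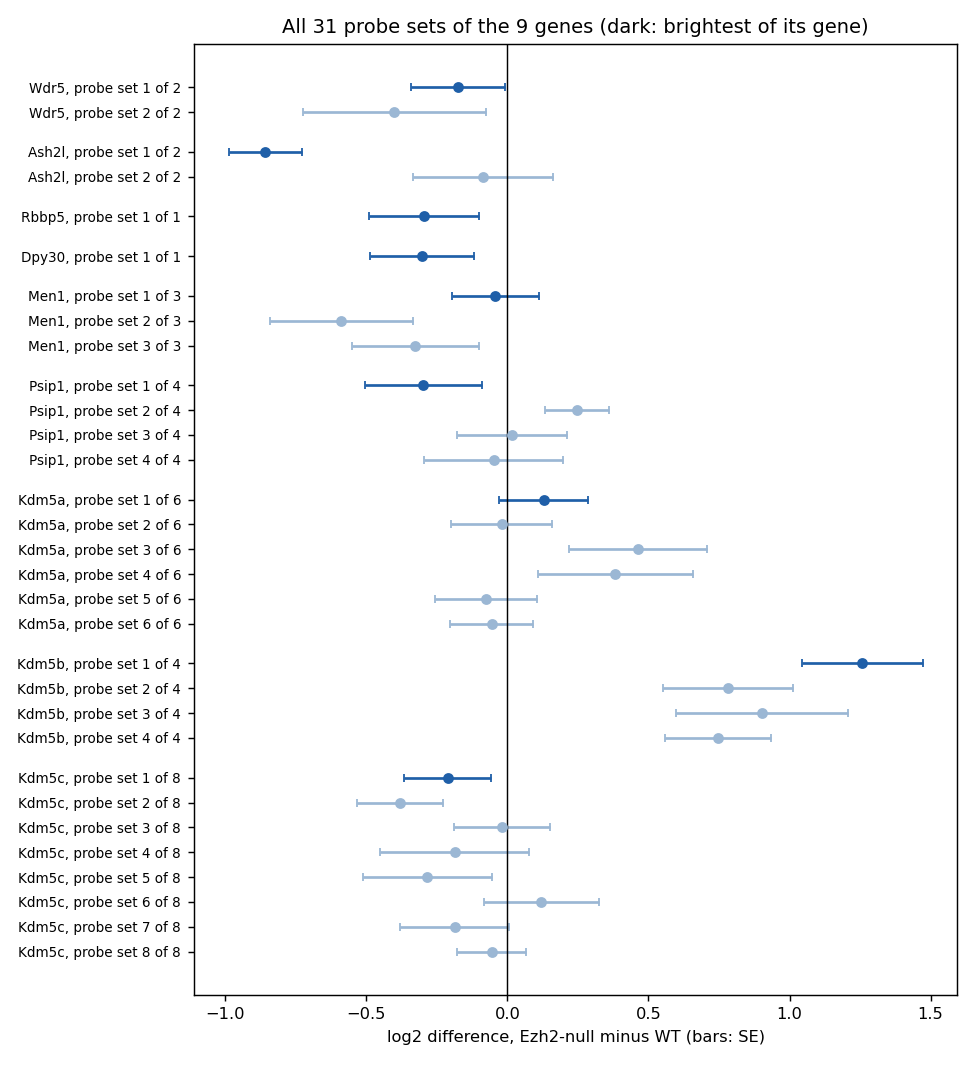
Log2 difference, Ezh2-null minus WT, of all 31 probe sets of the 9 genes, with bars of 1 SE and the brightest probe set of each gene in dark blue. The 4 Kdm5b probe sets lie between 0.75 and 1.26, and Ash2l has 1 probe set at -0.86 and 1 at -0.09.

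The differences of Kdm5b and Ash2l kept their sign in all 19 alternative fits, from 0.83 to 1.45 for Kdm5b and from -0.94 to -0.47 for Ash2l. Leaving out dim genes, fitting every probe set and an intensity trend cannot change these differences. The other fits reuse the same arrays, so nothing is read from the kept sign. At an adjusted p under 0.05 in limma, Kdm5b no longer passed in 8 of the 19 fits and Ash2l in 9. Without WT replicates 3 and 4 they were 0.83 and -0.79. Kdm5a, Wdr5 and Psip1 changed sign without WT replicates 3 and 4, and Dpy30 went to -0.06.

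**Figure D4:**
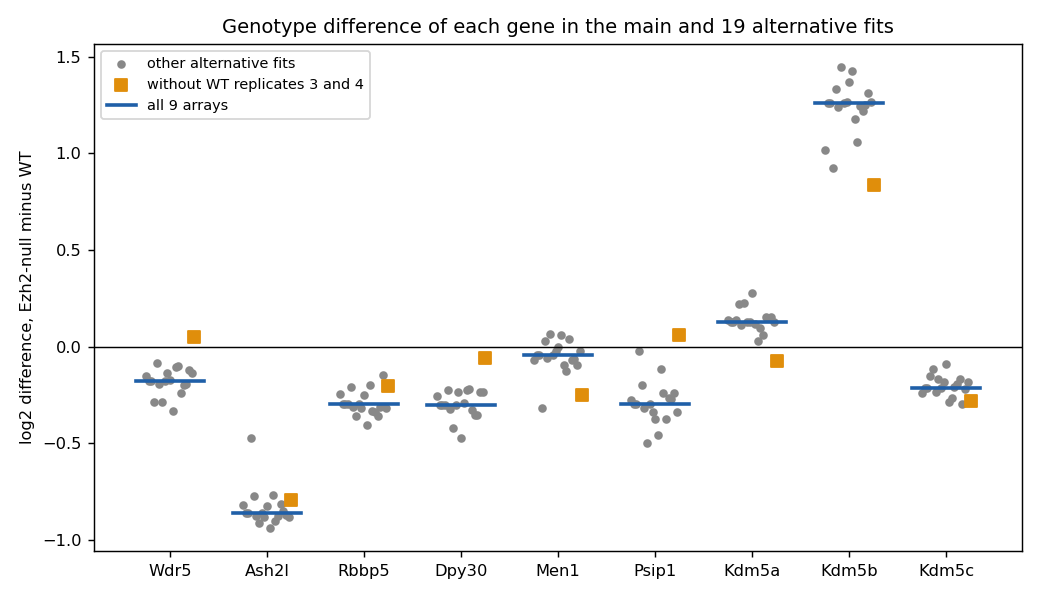
Log2 difference, Ezh2-null minus WT, of each gene with all 9 arrays (blue line), in 18 alternative fits (grey points) and without WT replicates 3 and 4 (orange squares). Kdm5b stays between 0.83 and 1.45 and Ash2l between -0.94 and -0.47, while Kdm5a, Wdr5, Men1 and Psip1 cross 0 in at least 1 fit.

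None of the other listed genes of H3K4 methylation passed the test. There were 51 further genes in 5 lists drawn up for H3K4 writers, their partners, erasers and readers. Of them 0 were higher and 0 lower at an adjusted p under 0.05 in limma (smallest adjusted p = 0.0887). At an unadjusted p under 0.05 were 11 of the 51, 7 higher and 4 lower, where 17.2% of all genes were under it. Their median difference was -0.02, against 0.02 for all genes. In 4 of the 51 all Ezh2-null arrays lay above all WT arrays (3.03% of all genes), and in 1 below (2.87%). A further 16 genes were only in 3 other lists, of H3K27 and other JmjC demethylases and of sex-linked genes, Kdm5d among them. Of these 16, 0 passed in limma (smallest adjusted p = 0.212) and 2 were at an unadjusted p under 0.05. Their median was -0.05.

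Of the 6 catalytic subunits that use the core, 0 passed in limma and 2 were at an unadjusted p under 0.05. Mll1, now called Kmt2a, the mouse gene for MLL, had a log2 difference of -0.13 (adjusted p = 0.808 in limma). The fusion itself was carried by the retrovirus. Wbp7, now called Kmt2b, stood at -0.43 (adjusted p = 0.222). Mll3, now Kmt2c, stood at 0.23 (adjusted p = 0.288), with every Ezh2-null array from 11.56 to 11.82 above every WT array from 11.31 to 11.54. That holds for its brightest probe set, and its 4 probe sets ran from -0.05 to 0.30. Mll2, an older name of Kmt2d that has also been used for Kmt2b, was at 0.17, Setd1a at -0.22 and Setd1b at -0.03, with limma adjusted p of 0.520, 0.382 and 0.918. Among 13 measured genes for partners found in only some of these complexes, the largest difference was that of Hcfc2, a relative of the MLL1 and SET1 subunit HCF1, at 0.65 (SE 0.16, adjusted p = 0.0887 in limma), although its 3 probe sets ran from -0.91 to 0.65. Bod1 stood at -0.36 (adjusted p = 0.256).

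Genes listed as other H3K4 methyltransferases, an activity not measured here, had a median of 0.23 over 8 genes, 7 positive and 1 negative. Mll5, now called Kmt2e, was at 0.36 (SE 0.11, adjusted p = 0.136 in limma), with 5 probe sets from 0.27 to 0.50, and Prdm9, the meiotic enzyme, at 0.50 (adjusted p = 0.219). The largest difference of this list was the negative one, Smyd2 at -0.65 (adjusted p = 0.297 in limma). On the erasing side, LSD1 demethylases and their CoREST partners had a median of -0.05 over 10 genes. Kdm1b, the LSD1 relative that acts in gene bodies, stood at -0.59 (SE 0.18, adjusted p = 0.146 in limma) on a dim probe set, and the deacetylase gene Hdac2 at -0.46 (adjusted p = 0.211). Readers of H3K4 methylation had a median of 0.01 over 14 genes, with Pygo1 at 0.46 (adjusted p = 0.112) on a dim probe set and Phf13 at 0.27 (adjusted p = 0.267). Among 10 other JmjC demethylases Kdm4a stood at -0.42 (adjusted p = 0.240) and Kdm2a at -0.38 (adjusted p = 0.322). The 2 probe sets of Kdm4a ran from -0.42 to 0.06, and the 5 of Kdm2a from -0.38 to 0.03.

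Of the enzymes that erase the Ezh2 mark, Kdm6a, itself a subunit of the KMT2C and KMT2D complexes, was at -0.06 (adjusted p = 0.839 in limma), and its Y-linked relative Uty at -0.05 (adjusted p = 0.875). Kdm6b, which is induced in activated myeloid cells, in WT stood at 11.33 ± 0.67 (SD, n = 4), and in Ezh2-null samples 12.07 ± 0.25 (SD, n = 5), a difference of 0.75 (SE 0.28, adjusted p = 0.212 in limma). Its low arrays were again WT replicates 3 and 4, at 10.64 and 10.86, while WT replicates 1 and 2, at 11.92 and 11.89, lay inside the Ezh2-null range.

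**Figure D5:**
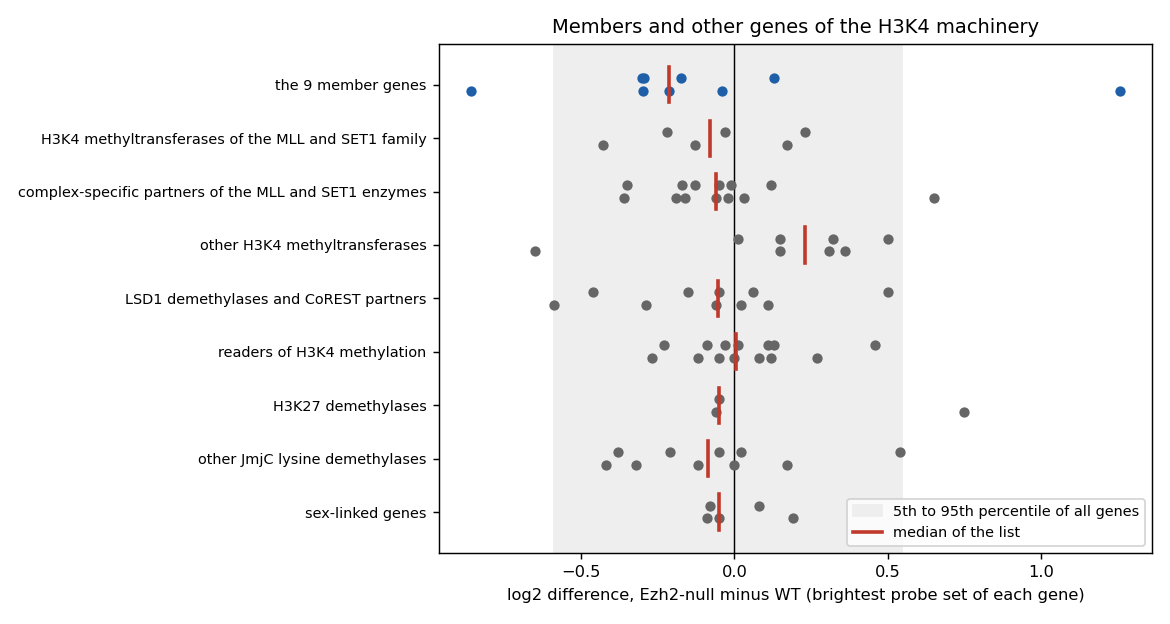
Log2 difference, Ezh2-null minus WT, of the 9 members and of the measured genes of 8 lists (points), with the median of each list (red line) and the span from the 5th to the 95th percentile of all genes (grey, -0.59 to 0.55). Kdm5b at 1.26 and Ash2l at -0.86 lie outside the grey span.

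Markers of other marrow cells were read beside the Kdm5b and Ash2l results. Mean levels of 8 T and NK cell genes ran from 6.27 to 6.81 in WT and from 6.64 to 6.86 in Ezh2-null samples, with 5 of the 8 below the 40th percentile. Those of 5 B cell genes ran from 6.60 to 6.81 and from 6.71 to 6.99, and those of 6 erythroid genes from 6.62 to 7.13 and from 6.67 to 7.04, in the same order. For 6 megakaryocyte genes the range was 6.45 to 6.73 in WT and 6.83 to 7.14 in Ezh2-null samples, and for 8 stroma and endothelium genes 7.15 to 7.21 and 7.27 to 7.67. The means of these last 2 lists, like Kdm5b, had all Ezh2-null arrays above the highest WT array. All 6 megakaryocyte genes were positive, with a median difference of 0.31. So were all 8 T and NK cell genes, with a median of 0.13, and all 5 B cell genes, with a median of 0.10. Of the erythroid genes 3 were positive and 3 negative. In the stroma and endothelium list 4 genes were positive and 4 negative, with a median of 0.0. The largest difference there was that of Vcam1, at 2.37, so its list mean does not describe these genes as a group. Below the 40th percentile were also 3 of the B cell, 4 of the erythroid, 3 of the megakaryocyte and 4 of the stroma and endothelium genes. No marker had an intensity of 0, but RMA values on a linear scale lie above 0, so detection is not read from this. Of the 33 marker genes of other cells 0 passed in limma, 6 being at an unadjusted p under 0.05, where 17.2% of all genes were. The part of these markers in the results was not tested.

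Genes whose profile was most like that of each member were taken by Pearson r over the 9 arrays after subtraction of genotype means, among genes at or above the 40th percentile of brightness. For Kdm5b these were Wdr24 (0.977) and Cant1 (0.973), and for Ash2l Zfp639 (0.966) and Wwp1 (0.907). Wdr5 was most like Tmem179b (0.989) and Tubg1 (0.974), Rbbp5 like H2-DMa (0.964) and Ehmt2 (0.957), and Dpy30 like Rbp4 (0.971) and Gripap1 (0.966). Men1 was most like Rasd1 (0.988) and Rhox9 (0.983), Psip1 like Ccs (0.969) and Gga2 (0.968), Kdm5a like Myo5a (0.961) and Pmaip1 (0.944), and Kdm5c like Ccdc111 (0.933) and Zfp161 (0.928). Each is the highest of many r over 9 arrays, and no function is read from it.

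None of the measured genomic neighbours of Kdm5b and Ash2l passed. Of the 5 protein-coding genes on each side of Kdm5b 9 were measured, with differences from -0.23 to 0.54 and 0 passing (smallest adjusted p = 0.184 in limma, 1 at an unadjusted p under 0.05). The 9 measured neighbours of Ash2l ran from -0.98 to 0.43, again with 0 passing (smallest adjusted p = 0.208 in limma, 2 at an unadjusted p under 0.05). The promoter table held 6 of the 9 members, without Ash2l, Kdm5a and Psip1. Single windows of Kdm5c, Rbbp5 and Wdr5 held 13, 16 and 22 CpGs, the 3 windows of Men1 held 11 to 16, and the 4 windows of Dpy30 ranged from 1 to 39.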

How the data were processed

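Per the labels' protocols, total RNA of sorted cells was amplified by a whole-transcriptome method, labelled with biotin and hybridised, 1 array per sample. The submitters' processing notes name RMA, version not given, and the deposited intensity values are on a linear scale. A second deposited table holds intensity values of these arrays after ComBat adjustment together with another series, per the file headers. It served as an alternative and for gene symbols, 7 columns that belong to other samples were left unused, and 2 values under 1 were raised to 1.

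Of 45101 probe sets, 37818 named a single gene. The brightest of each gene by mean log2 over 9 arrays gave 20680 genes. Genotypes were compared with limma 3.58.1 (lmFit, eBayes) in R 4.3.3 on log2 values with no filter and no covariate, with two-sided p-values adjusted by Benjamini-Hochberg over all genes and a threshold of 0.05. In the fit of every probe set p-values were adjusted over 37818. The procedure was tested on simulated arrays with independent normal noise. There 60% of 100 genes changed 2-fold were called, and 97% of 100 changed 4-fold. Of the calls 4.85% were unchanged genes. Smaller changes were not simulated, so a gene that did not pass may still differ. Alternatives are listed in the closing section.

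The members, gene lists and alternatives were chosen with earlier results of these data known. Named list genes were those that passed, otherwise the 2 with the smallest p in each list, with all MLL and SET1 enzymes, H3K27 demethylases and sex-linked genes. Likeness named the 2 genes of highest r per member. The neighbours of Kdm5b and Ash2l and the other probe sets singled out were chosen after values were seen. Symbols are those of the deposited table, and neighbours and promoters come from the RefSeq annotation of GRCm38.p6. The build behind the array is not given in the sources used here.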

Additional observations from a re-analysis of the deposited data

Results flagged for a closer look

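In 4 of 62 groups of arrays (31 probe sets, 2 genotypes) 1 array lay far from the rest of its group by Dixon's criterion, where chance flags about 1 in 20 groups. The single Rbbp5 probe set was at 8.05 on Ezh2-null replicate 4, against 8.73 to 8.92 (log2) on the other Ezh2-null arrays. The third Kdm5c probe set by brightness was at 8.99 on Ezh2-null replicate 5, against 9.49 to 9.68. The dimmest Kdm5c probe set was at 3.47 on the same array, against 3.70 to 3.77. The seventh Kdm5c probe set was at 5.72 on WT replicate 2, against 6.13 to 6.19. The brightest probe sets of Kdm5b and Ash2l were not among them.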

How the results depend on the processing

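The count of genes that passed was 103 with all arrays, 202 in the ComBat-adjusted table, 162 with every probe set on its own, 1007 with array weights, 61 without WT replicates 3 and 4, 488 at an adjusted p under 0.1, and 17 to 330 with 1 array left out. The cause was not tested. Of the 9 members 2 passed, 0 when a gene's probe sets were averaged, 0 without WT replicates 3 and 4, and 0 to 2 with 1 array left out. With the replicate number as a block 1 member passed, Kdm5b, and 135 genes in all. Ezh2-null replicate 5 has no WT array of its number, so it adds nothing to the differences in that fit. The members' differences there equal those without that array. Because the members were listed from this contrast, their counts say nothing of how stable it is. The labels tie no shared origin to the numbers, same-numbered arrays had correlations of -0.05, 0.09, 0.13 and -0.14 in their deviations, and 1 of 4 WT arrays correlated best with its own number. Of the 67 other listed genes 0 passed, 3 with array weights (Hcfc2, Pygo1 and Kdm6b) and 1 at an adjusted p under 0.1 (Hcfc2). The members' median of -0.212 was negative under all alternatives, from -0.288 to -0.117 in those that kept all arrays, from -0.293 to -0.115 with 1 array left out and -0.075 without WT replicates 3 and 4. Leaving out dim genes, fitting every probe set, an intensity trend and another threshold cannot change this median. Since the members were listed from this contrast, nothing is read from its sign. The alternatives also included leaving out dim genes, quantile normalization, centring on array medians, and an intensity trend with robust variance. The array count and the 3 member probe sets below the 40th percentile of brightness limit what can be seen.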
